A study of Mus musculus with 6 samples.

Results

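The gene set described here holds 10 genes of the p53 response and the related GADD45 and sestrin families, chosen by name: Gadd45a, Gadd45b, Gadd45g, Cdkn1a, Mdm2, Trp53inp1, Ccng1, Sesn1, Sesn2 and Sesn3. All 10 were among the 43346 genes of the deposited table, and all 10 were among the 15583 genes that passed the low-count filter. RNA from gastrocnemius muscle, the large calf muscle, was sequenced in 6 libraries, 3 per group. All libraries came from males of the Vdrfl/fl.actin iCre genotype, treated at an age of 6 months. In them loxP sites flank exon 3 of Vdr, the gene of the vitamin D receptor, and a Cre recombinase fused to a mutated estrogen receptor is driven by the human skeletal actin (ACTA1) promoter. The knockout group (VDR_KO) received tamoxifen at 100 mg/kg for 5 days, and the vehicle group (VEH_CONT), with the same loxP sites and the same Cre, received 10% ethanol in corn oil for 5 days. The diet held vitamin D3 at 3.4 IU/g and 0.81% calcium, tests of strength and glucose tolerance were made 10 days after injections ended, and the muscle was taken once they were done.

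Tamoxifen, Cre activity and loss of the floxed exon cannot be told apart in these libraries. Neither tamoxifen-treated mice without Cre nor tamoxifen-treated Cre mice without loxP sites were analysed here. Cells other than muscle fibres keep an intact Vdr in this model. Vdr itself had 52, 27 and 40 reads in the knockout and 46, 48 and 61 in the vehicle libraries, and its log2 fold change was -0.37 (SE 0.37; edgeR adjusted p = 0.848). These are gene-level counts that hold the undeleted exons too, so they check the labels only in part. Library totals ran from 30486874 to 39909535 counted reads, lowest in knockout replicate 2. In that library the 10 most abundant genes took 15.1% of reads, where they took 20.8% to 25.2% elsewhere. Muscle fibre markers (Ckm, Acta1, Des, Ttn, Mb, Tcap and Myh4) summed to 38775 to 47267 FPKM (fragments scaled to gene length and library total), and 0 of the 7 were at 0.

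The transcription factor p53 is stabilised by DNA damage and other stress and switches on genes that stop the cell cycle, repair DNA or adjust metabolism. Cdkn1a encodes p21, an inhibitor of cyclin-dependent kinases, Mdm2 encodes the ubiquitin ligase that returns p53 to low levels, and Ccng1 (cyclin G1) and Trp53inp1 feed back on p53 activity. GADD45 proteins are small stress sensors that bind p21 and the kinase MEKK4 (Map3k4), and sestrins restrain the growth kinase complex mTORC1 through the GATOR proteins. In skeletal muscle, where most nuclei no longer divide, Gadd45a and Cdkn1a are best known as genes induced by denervation and disuse, Gadd45b and Gadd45g as genes that respond to cytokines and acute stress, and Sesn3 as a FoxO target.

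Promoter windows of 300 bases, from 250 before to 50 after an annotated start, were available from RefSeq (GRCm38.p6) for 9 of the 10 genes in 11 windows. The 6 shown belong to the genes on which the results below turn, Gadd45b, Cdkn1a and Sesn1, with Gadd45g as a GADD45 paralog and Ccng1 as a p53 target. The downstream Cdkn1a window, which held none of the marked motifs, is not shown. Nor are the windows of Mdm2 and Gadd45a, which held the single p53 decamer without a pair. Capitals mark the core motifs found on either strand: the E-box CACGTG, the TATA box TATAAA, the FoxO motif GTAAACA, the CRE core TGACG, and the p53 motif as a single decamer or as a pair with at most 1 mismatch and at most 13 bases between the copies. Each window is written along its gene's strand.
Gadd45b, chr10:80929841-80930140, plus strand: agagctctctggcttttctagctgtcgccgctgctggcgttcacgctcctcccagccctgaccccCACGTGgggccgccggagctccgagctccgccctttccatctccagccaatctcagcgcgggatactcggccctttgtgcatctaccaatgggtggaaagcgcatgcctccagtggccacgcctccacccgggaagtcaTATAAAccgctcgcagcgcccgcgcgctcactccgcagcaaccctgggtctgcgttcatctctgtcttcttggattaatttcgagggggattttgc
Gadd45g, chr13:51846425-51846724, plus strand: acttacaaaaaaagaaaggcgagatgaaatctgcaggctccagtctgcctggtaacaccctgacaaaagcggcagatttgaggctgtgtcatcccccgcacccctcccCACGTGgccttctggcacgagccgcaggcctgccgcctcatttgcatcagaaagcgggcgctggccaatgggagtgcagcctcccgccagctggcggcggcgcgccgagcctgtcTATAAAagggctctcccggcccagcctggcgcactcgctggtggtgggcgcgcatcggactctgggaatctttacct
Cdkn1a, upstream start, chr17:29090729-29091028, plus strand: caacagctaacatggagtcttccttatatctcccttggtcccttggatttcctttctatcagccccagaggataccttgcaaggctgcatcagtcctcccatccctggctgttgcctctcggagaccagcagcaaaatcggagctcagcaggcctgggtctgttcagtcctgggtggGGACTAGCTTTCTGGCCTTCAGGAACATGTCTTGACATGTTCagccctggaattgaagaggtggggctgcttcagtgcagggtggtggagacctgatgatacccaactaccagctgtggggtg
Ccng1, chr11:40755237-40755536, minus strand: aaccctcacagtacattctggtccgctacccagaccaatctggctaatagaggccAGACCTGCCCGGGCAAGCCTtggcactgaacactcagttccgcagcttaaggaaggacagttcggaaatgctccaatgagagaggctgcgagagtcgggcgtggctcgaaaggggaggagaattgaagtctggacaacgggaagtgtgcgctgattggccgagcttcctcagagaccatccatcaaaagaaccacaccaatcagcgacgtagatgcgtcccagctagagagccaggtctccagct
Sesn1, upstream start, chr10:41810324-41810623, plus strand: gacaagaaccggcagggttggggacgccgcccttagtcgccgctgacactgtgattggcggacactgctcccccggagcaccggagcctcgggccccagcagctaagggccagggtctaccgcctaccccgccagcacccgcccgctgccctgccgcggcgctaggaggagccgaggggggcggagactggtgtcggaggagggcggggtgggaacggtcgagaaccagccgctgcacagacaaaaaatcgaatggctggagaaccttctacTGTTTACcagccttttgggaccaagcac
Sesn1, downstream start, chr10:41887189-41887488, plus strand: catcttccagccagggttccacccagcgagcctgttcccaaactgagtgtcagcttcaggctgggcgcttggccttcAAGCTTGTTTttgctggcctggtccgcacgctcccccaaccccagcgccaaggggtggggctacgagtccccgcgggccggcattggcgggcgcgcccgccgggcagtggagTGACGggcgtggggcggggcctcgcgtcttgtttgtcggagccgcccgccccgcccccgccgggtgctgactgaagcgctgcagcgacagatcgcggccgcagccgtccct

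The p53 pair motif was present in the upstream Cdkn1a window, from -51 to -32 and again from -73 to -42 relative to that start, and in the Ccng1 window from -195 to -176. It was found in 2 of 11 member windows and in 1.09% of all 32851 windows. The single p53 decamer was found in 5 of 11 member windows (Gadd45a, the upstream Cdkn1a, Mdm2, Ccng1 and the downstream Sesn1 window) and in 8.36% of all windows. Gadd45b and Gadd45g each held both CACGTG and TATAAA, motifs present in 7.15% and 13.6% of all windows. GTAAACA lay in the upstream Sesn1 window and the Mdm2 window, and in 3.65% of all windows, while TGACG lay in the downstream Sesn1 window and the Mdm2 window, and in 20.8% of all. The AP-1 motif TGANTCA was in 0 of 11 member windows and 7.81% of all, and the NF-kB and CArG motifs were in 0 of 11 against 4.51% and 1.63%. The general promoter motifs CCAAT and GGGCGG, left unmarked, were in 9 and 8 of 11 windows and in 37.4% and 35.7% of all. With at most 1 mismatch over both copies, a p53 pair always holds a single decamer, so each window with a pair also counts for the decamer. The starts lie 2790 bases apart in Cdkn1a and 76865 bases apart in Sesn1, and a gene-level count adds the reads of both. A match is a match of letters only and does not show binding.

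Per unit of gene length, Ccng1 was the most abundant of the 10 transcripts in this muscle and Sesn2 the least. Ccng1 averaged 248 ± 37.2 FPKM (SD, n = 6) and ranked 224 among the tested genes. Gadd45g followed at 79.7 ± 11.7, Gadd45b at 50.4 ± 21.1, Cdkn1a at 49.4 ± 18.2 and Gadd45a at 21.1 ± 12.7 FPKM. Mdm2 averaged 10.7 ± 1.23, Sesn1 8.68 ± 2.71 and Trp53inp1 8.06 ± 1.11 FPKM, and Sesn3 and Sesn2 lay near the bottom at 1.21 ± 0.569 and 0.744 ± 0.0414 FPKM. The ranges over the 6 libraries did not overlap at the steps from Ccng1 to Gadd45g and from Trp53inp1 to Sesn3. At each of the other steps the ranges of neighbours overlapped, although Cdkn1a was above Gadd45a within each of the 6 libraries. Gadd45b was above Cdkn1a in the 3 vehicle libraries and below it in the 3 knockout libraries. Sesn1 was above Trp53inp1 in the 3 knockout libraries and below it in the 3 vehicle libraries. Among the GADD45 genes, Gadd45g supplied 36.7% to 69.1% of the family's summed FPKM, and among the sestrins Sesn1 supplied 73.2% to 89.9%.

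**Figure D1:**
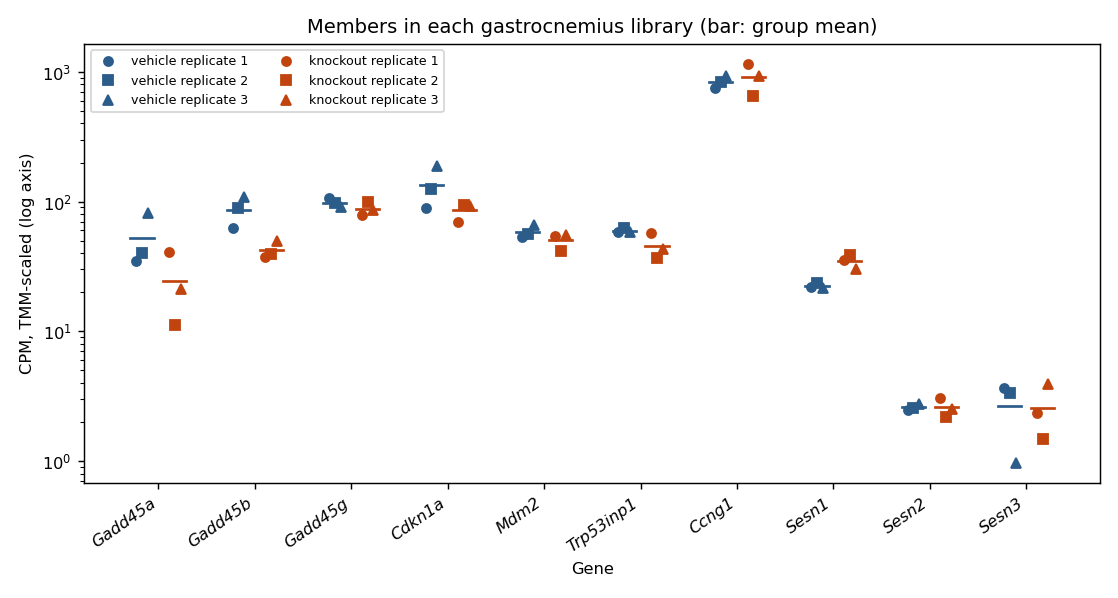
CPM, the read count scaled to the library total with TMM factors (log axis), of the 10 genes in each library; points are single libraries, coloured by group and shaped by replicate, and bars are group means. The 3 knockout points lie below the 3 vehicle points for Gadd45b and Trp53inp1 and above them for Sesn1.

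The knockout and vehicle groups were compared to find transcripts that differ once Vdr deletion is induced in adult muscle. Within the set, Gadd45a, Gadd45b and Cdkn1a had the lowest estimates in knockout, Sesn1 had a higher one, and Sesn2, Sesn3 and Ccng1 lay close to 0. Levels are given as CPM, read counts scaled to library size with TMM factors that allow for library composition, and differences as log2 of knockout over vehicle. None passed the threshold: edgeR called 0 of 10 at an adjusted p below 0.05, and 0% of all 15583 genes, among which the lowest adjusted p was 0.058. Without adjustment, 3 of 10 had a p below 0.05, Gadd45b and Cdkn1a lower and Sesn1 higher, where 7.44% of all genes were at that level (3.42% lower and 4.02% higher). DESeq2 called 1 of 10, Gadd45b, and 0.700% of all genes. The groups did not overlap in 3 of 10, Gadd45b and Trp53inp1 lower and Sesn1 higher, where 12.3% of all genes did not overlap (6.48% lower and 5.83% higher). With 10 genes these shares are coarse. Of the 10 estimates 8 were lower in knockout and the median log2 fold change was -0.19, while 47.1% of all tested genes had a lower estimate and their median was 0.021.

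**Figure D2:**
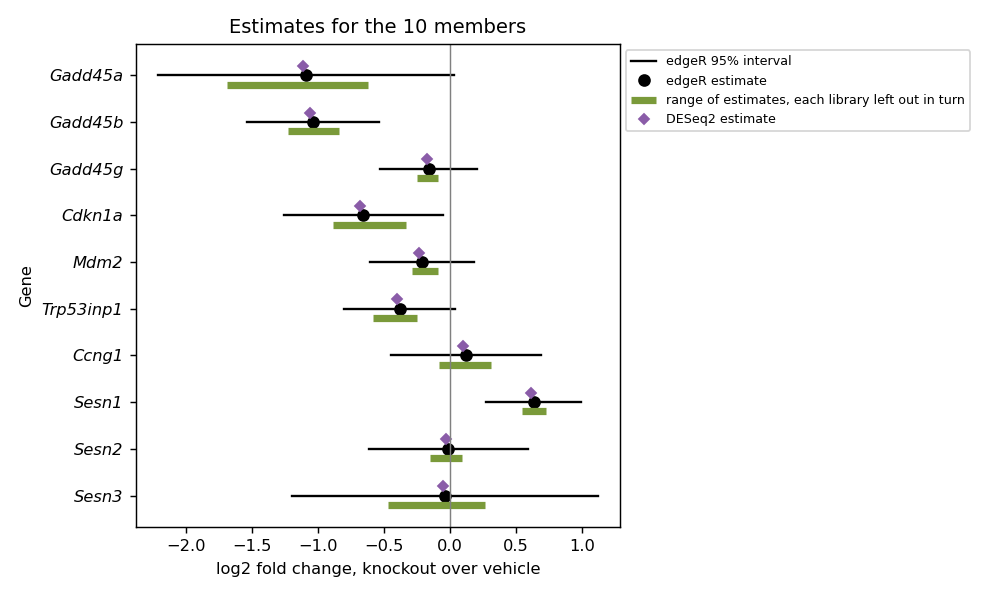
Log2 fold change of knockout over vehicle for each gene: black points and lines are the edgeR estimate and its 95% interval, purple diamonds the DESeq2 estimate, and green bars the range of edgeR estimates when each library is left out in turn. The intervals of Gadd45b, Cdkn1a and Sesn1 exclude 0 before adjustment over all genes; the green bars of Ccng1, Sesn2 and Sesn3 cross 0.

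Gadd45b (ENSMUSG00000015312; mm10 chromosome 10, 80930091 to 80932204, plus strand) encodes the GADD45 protein induced as an immediate stress and cytokine response. It measured 37.6, 39.5 and 49.6 CPM in knockout replicates 1, 2 and 3 and 62.2, 88.4 and 109 CPM in vehicle replicates 1, 2 and 3. The highest knockout library thus lay below the lowest vehicle library, and the vehicle libraries were the more spread out. The group means were 42.2 ± 6.42 and 86.6 ± 23.5 CPM (SD, n = 3 each), a log2 fold change of -1.04 (SE 0.22, 95% interval -1.54 to -0.53; edgeR adjusted p = 0.408), which ranked 39 by p among the genes tested. DESeq2 gave -1.06 with an adjusted p of 0.0107, and the adjusted p ran from 0.0107 to 0.991 over the 15 alternatives. The estimate lay between -1.23 and -0.84 in the 6 fits that left out a library.

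Immediate early genes, to which Gadd45b is often assigned, stood in the same order between groups. Of 18 such genes (Fos, Egr1, Atf3 and others), 17 had a lower knockout estimate, the median log2 fold change was -0.75, and their summed level was 1184, 949 and 1348 FPKM in knockout and 1551, 2176 and 1962 FPKM in vehicle replicates 1 to 3. The groups did not overlap in that sum. Whether this bears on Gadd45b was not tested. Atf3, the stress-induced transcription factor with the smallest p of that list, measured 85.8 ± 10.1 CPM in knockout and 248 ± 27.5 CPM in the vehicle group (SD, n = 3 each).

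Gadd45a (ENSMUSG00000036390; mm10 chromosome 6, 67035096 to 67037457, minus strand), the family member linked to muscle atrophy, had the lowest estimate of the set and a wide spread. It measured 41.0, 11.2 and 21.3 CPM in the knockout and 35.1, 40.1 and 81.3 CPM in the vehicle replicates. Knockout replicate 1 was above vehicle replicates 1 and 2, so the groups overlapped, and the highest library was 7.28 times the lowest, the largest such ratio of the set. The log2 fold change was -1.09 (SE 0.49, 95% limits -2.21 and 0.030; edgeR adjusted p = 0.674). It was -0.62 without vehicle replicate 3 and -1.69 without knockout replicate 1. The noncoding gene E230016M11Rik overlaps Gadd45a and had at most 51 reads, against 386 to 3116 for Gadd45a.

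The order of Gadd45a over the libraries was the reverse of that of slow fibre genes when both were in FPKM. With Gadd45a in CPM it was close to the reverse. The summed level of 10 slow fibre markers (Myh7, Tnni1 and others) was 2033, 15355 and 3891 FPKM in knockout and 3600, 535 and 471 FPKM in vehicle replicates 1, 2 and 3. Knockout replicate 2, highest in slow fibre markers, was lowest in Gadd45a, and vehicle replicate 3, lowest in slow fibre markers, was highest in Gadd45a. Slow fibre markers were not alone in this. The sum of 11 macrophage markers (Csf1r, C1qa and others) was also close to the reverse order of Gadd45a. This sum was 29.7, 117 and 97.5 FPKM in knockout and 43.6, 35.7 and 26.4 FPKM in vehicle replicates 1, 2 and 3. Knockout replicate 1 and vehicle replicate 2 stood in reverse order to Gadd45a in CPM. They did not in FPKM, where Gadd45a was at 21.2 and 22.3 in these 2 libraries. The part of fibre or other cell content in the Gadd45a values was not tested. In whole muscle, fewer cells of a type and less RNA per cell cannot be told apart.

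Gadd45g (ENSMUSG00000021453; mm10 chromosome 13, 51846678 to 51848468, plus strand), the most abundant GADD45 gene here, was also the steadiest of the 3. It measured 78.8, 98.5 and 86.6 CPM in knockout and 107, 97.8 and 90.0 CPM in vehicle replicates. The groups overlapped, and the log2 fold change was -0.16 (95% limits -0.53 and 0.21; edgeR adjusted p = 0.849).

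Added per unit length, the 3 GADD45 genes reached 109, 138 and 133 FPKM in the knockout and 154, 172 and 201 FPKM in the vehicle replicates. All knockout sums lay below all vehicle sums, with means of 127 ± 15.1 and 176 ± 23.3 FPKM (SD, n = 3 each; two-sided exact permutation p = 0.1, the smallest that 3 against 3 allows). Gadd45b supplied 27.3 ± 3.56% of the family in knockout and 37.2 ± 5.72% in the vehicle group (SD, n = 3 each; exact permutation p = 0.2), with 31.3% in knockout replicate 3 just above 30.7% in vehicle replicate 1.

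**Figure D3:**
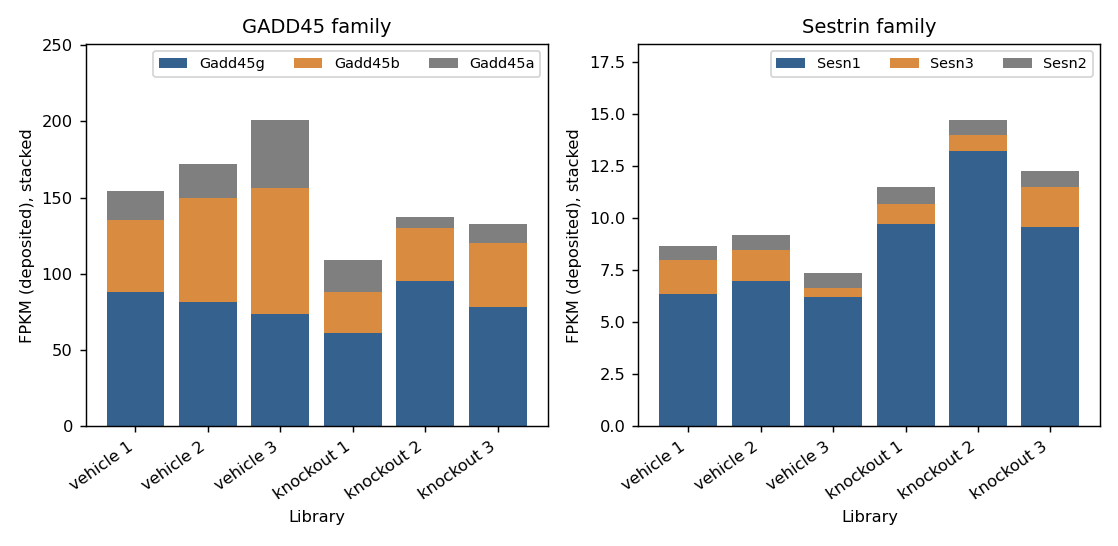
Deposited FPKM of the GADD45 genes (left) and the sestrins (right), stacked by gene, in each library. The GADD45 stacks of the 3 knockout libraries, 109 to 138 FPKM, are lower than the vehicle stacks, 154 to 201 FPKM, and the sestrin stacks are higher, 11.5 to 14.7 against 7.40 to 9.21 FPKM, with Sesn1 the main layer.

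Cdkn1a (ENSMUSG00000023067; mm10 chromosome 17, 29090979 to 29100722, plus strand), the cell cycle inhibitor p21, was lower on average in knockout, but the size of the difference depended on 1 vehicle library. It measured 69.1, 94.9 and 92.1 CPM in the knockout and 89.1, 126 and 189 CPM in the vehicle replicates. Vehicle replicate 1 lay inside the knockout range, so the groups overlapped, and vehicle replicate 3 was the highest library. The log2 fold change was -0.66 (SE 0.27, 95% limits -1.26 and -0.052; edgeR adjusted p = 0.651), and it was -0.33 without vehicle replicate 3.

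Mdm2, Trp53inp1 and Ccng1 form the p53 feedback group, and their estimates differed in sign. Trp53inp1 (ENSMUSG00000028211; mm10 chromosome 4, 11156431 to 11174379, plus strand), whose product promotes p53 activity and autophagy, measured 57.3, 36.9 and 43.2 CPM in knockout and 58.6, 62.6 and 57.8 CPM in vehicle replicates. The groups did not overlap, but knockout replicate 1 lay just under vehicle replicate 3. The log2 fold change was -0.38 (SE 0.19; edgeR adjusted p = 0.689), and it was -0.25 without knockout replicate 2 and -0.58 without knockout replicate 1. Mdm2 (ENSMUSG00000020184; mm10 chromosome 10, 117688888 to 117710758, minus strand) measured 54.6, 41.6 and 55.6 CPM in knockout and 53.2, 56.3 and 66.3 CPM in vehicle replicates. These ranges overlapped, and the log2 fold change was -0.21 (95% interval -0.61 to 0.18; edgeR adjusted p = 0.808). Ccng1 (ENSMUSG00000020326; mm10 chromosome 11, 40748552 to 40755311, minus strand) measured 1150, 657 and 930 CPM in knockout and 757, 832 and 929 CPM in vehicle replicates. Its highest and its lowest library were both knockout libraries, and the log2 fold change was 0.12 (95% interval -0.45 to 0.69; edgeR adjusted p = 0.940), with a sign that turned without knockout replicate 1.

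Sesn1 (ENSMUSG00000038332; mm10 chromosome 10, 41810574 to 41908424, plus strand), the main sestrin of this muscle, had the highest estimate of the set, with little spread in either group. It measured 35.5, 38.8 and 30.0 CPM in the knockout and 22.0, 23.7 and 21.5 CPM in the vehicle replicates. Every knockout library was above every vehicle library, and the vehicle libraries lay close together. The means were 34.8 ± 4.43 and 22.4 ± 1.15 CPM (SD, n = 3 each), a ratio of 1.55 and a log2 fold change of 0.63 (SE 0.16, 95% interval 0.28 to 0.99; edgeR adjusted p = 0.526), which ranked 81 by p. The estimate lay between 0.55 and 0.73 in the fits that left out a library. DESeq2 gave 0.62 with an adjusted p of 0.131, the smallest over the alternatives, where the largest was 0.991.

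Sesn2 and Sesn3, which share the mTORC1 role, rested on few reads, and the 95% intervals of both differences included 0. Sesn2 (ENSMUSG00000028893; mm10 chromosome 4, 132492032 to 132510501, minus strand) rested on 76 to 106 reads per library and measured 2.59 ± 0.432 CPM in knockout and 2.61 ± 0.146 CPM in the vehicle group (SD, n = 3 each). The log2 fold change was -0.011, with a 95% interval of -0.61 to 0.59. Sesn3 (ENSMUSG00000032009; mm10 chromosome 9, 14276301 to 14326138, plus strand) rested on 37 to 146 reads and measured 2.36, 1.48 and 3.90 CPM in knockout and 3.69, 3.32 and 0.965 CPM in vehicle replicates. Its libraries were scattered in both groups, and its log2 fold change of -0.038 had a 95% interval of -1.20 to 1.12.

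The summed sestrin level was 11.5, 14.7 and 12.3 FPKM in the knockout and 8.70, 9.21 and 7.40 FPKM in the vehicle replicates. The groups did not overlap, with means of 12.8 ± 1.67 and 8.44 ± 0.935 FPKM (SD, n = 3 each; two-sided exact permutation p = 0.1). Sesn2 supplied 6.03 ± 1.06% of that sum in knockout and 8.70 ± 1.41% in the vehicle group (SD, n = 3 each; exact permutation p = 0.1). The level of Sesn2 itself differed little, slightly higher in knockout in FPKM and slightly lower in CPM. It was 0.762 ± 0.0422 FPKM in knockout and 0.726 ± 0.0389 FPKM in vehicle, or 2.59 and 2.61 CPM. The share thus fell with the higher sum. The share from Sesn1, 84.1 ± 5.87% and 77.6 ± 5.55%, overlapped (exact permutation p = 0.2). For the 8 family sums and shares tested, the smallest p adjusted by Benjamini-Hochberg was 0.267.

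**Figure D4:**
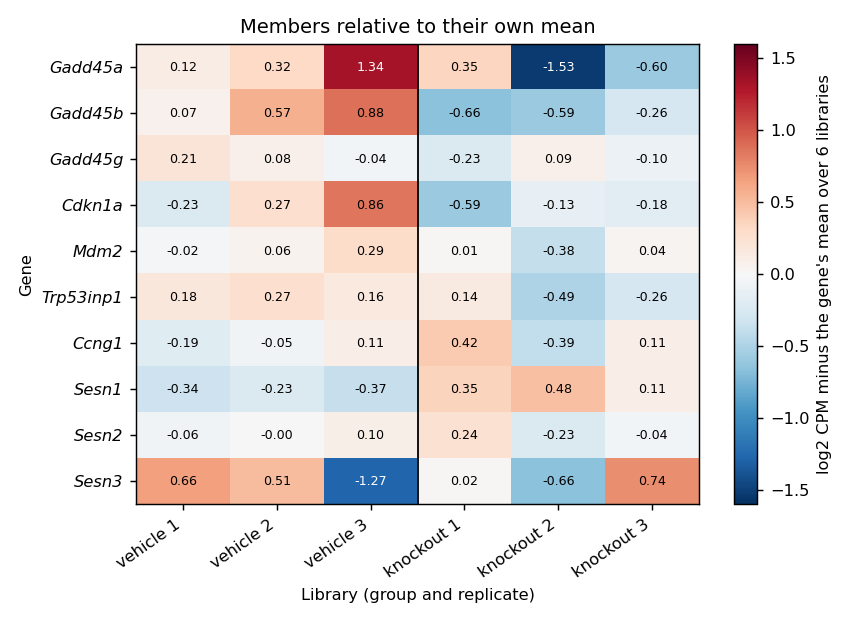
Log2 CPM of each gene minus its mean over the 6 libraries, with vehicle libraries to the left of the line and knockout libraries to the right; red is above and blue below the gene's own mean. Gadd45b is below 0 in all knockout and above 0 in all vehicle libraries and Sesn1 the reverse, while knockout replicate 2 is the lowest library for Gadd45a, Mdm2, Trp53inp1, Ccng1 and Sesn2.

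The members did not all follow the same order over the 6 libraries. Likeness was measured as the root mean square difference of log2 CPM after centring each gene on its own mean. The closest pairs were Ccng1 with Sesn2 at 0.13 and Mdm2 with Sesn2 at 0.14, and Gadd45b and Cdkn1a were 0.26 apart. Gadd45a and Sesn3 were the farthest apart, at 1.28. Knockout replicate 2 was the lowest of the 6 libraries for 5 members, Gadd45a, Mdm2, Trp53inp1, Ccng1 and Sesn2, and the highest for Sesn1. Vehicle replicate 3 was the highest for Gadd45a, Gadd45b, Cdkn1a and Mdm2.

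By the same measure, the genes most like Gadd45b among 8871 candidates were Ubald1 at 0.11, Ppp1r15a, the stress-induced phosphatase subunit also known as GADD34, at 0.11, and Pnrc1, a nuclear receptor coactivator, at 0.12. Ppp1r15a measured 29.7, 29.4 and 35.2 CPM in knockout and 47.5, 76.5 and 73.7 CPM in vehicle replicates. The genes most like Cdkn1a were Emd, which encodes the nuclear envelope protein emerin, at 0.11, Leng9 at 0.13 and the homeobox gene Hoxc11 at 0.16. Emd shared the high value of vehicle replicate 3, at 215 CPM against 70.8 to 131 CPM in the other libraries. The genes most like Sesn1 were Rrs1, a ribosome assembly factor, at 0.056, Asah1, the lysosomal acid ceramidase, at 0.10, and Rin2 at 0.12. These genes were picked as the closest of all candidates over only 6 libraries, so the small distances are a description.

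Other genes of the p53 pathway were lower in estimate more often than higher, with none called. Of 37 listed, 34 were tested, 25 with a lower and 9 with a higher estimate, and their median log2 fold change was -0.11. At an unadjusted p below 0.05, 4 of 34 were lower and 0 higher, beside 3.42% and 4.02% of all tested genes. The groups did not overlap in 7 of 34, all lower, beside 6.48% of all tested genes. Plk3, a stress-activated polo-like kinase, measured 25.5 ± 8.80 CPM in knockout and 67.4 ± 23.5 CPM in the vehicle group (SD, n = 3 each), a log2 fold change of -1.40 (SE 0.33; edgeR adjusted p = 0.513). Eda2r, a receptor of the tumour necrosis factor family, was at -0.98 (SE 0.31) and Btg2, an antiproliferative immediate early gene, at -0.77 (SE 0.27), with edgeR adjusted p values of 0.628 and 0.633. Trp53, which encodes p53 itself and is named outside the rule, measured 10.1, 10.2 and 10.7 CPM in knockout and 12.6, 11.1 and 12.8 CPM in vehicle replicates. Its groups did not overlap, the log2 fold change was -0.23 (SE 0.17; edgeR adjusted p = 0.783), and p53 protein, which is regulated mainly after translation, was not measured.

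Genes of the pathways around GADD45, p21 and the sestrins, not all of them direct targets, were described in the same way. Of 15 tested kinases and phosphatases of the MAP kinase cascade around GADD45, 11 had a lower estimate, with a median of -0.074. Dusp1, a MAP kinase phosphatase and immediate early gene, was at -0.73 (SE 0.27), Map3k5 at 0.53 (SE 0.26) and Map2k4 at -0.20 (SE 0.20). Of 14 tested cell cycle genes around p21, 10 had a higher and 4 a lower estimate, with a median of 0.16. Those of smallest p, named here, were all lower. Pcna, the replication clamp that p21 binds, measured 18.2, 21.6 and 18.3 CPM in knockout and 23.4, 25.0 and 26.0 CPM in vehicle replicates. Its log2 fold change was -0.36 (SE 0.15). The groups did not overlap in 2 of 14, Pcna and Cdkn2d, beside 6.48% of all tested genes that were lower without overlap. The inhibitors Cdkn2c and Cdkn2d were at -0.40 (SE 0.27) and -0.22 (SE 0.17).

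Of 24 tested partners of the sestrins in the GATOR, AMPK and mTOR complexes and the NRF2 pathway, 17 had a lower estimate, with a median of -0.088. Nfe2l2, which encodes NRF2, was at -0.65 (SE 0.21), Rictor, a subunit of mTORC2, at -0.71 (SE 0.30) and the autophagy adaptor Sqstm1 at -0.46 (SE 0.20). The groups did not overlap in 4 of 24, these genes among them and all lower, beside 6.48% of all tested genes. For Rictor the gap was narrow, with 23.773 CPM in knockout replicate 3 and 23.845 CPM in vehicle replicate 1. Of 17 factors known to control members of the set, 12 had a lower and 5 a higher estimate, with a median of -0.16. At an unadjusted p below 0.05 in edgeR, 3 of 17 were lower and 1 higher, beside 3.42% and 4.02% of all tested genes. The groups did not overlap in 4 lower and 1 higher of the 17, beside 6.48% and 5.83%. Those of smallest p, named here, were all lower. Myog, the myogenic factor that acts on denervation, was at -1.22 (SE 0.28), Myc, a repressor of Cdkn1a, at -1.20 (SE 0.29) and Klf4, an activator of Cdkn1a, at -0.96 (SE 0.34). Btg2, Dusp1 and Klf4 are also among the immediate early genes above. No gene of these lists was called by edgeR, and their smallest adjusted p was 0.478.

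**Figure D5:**
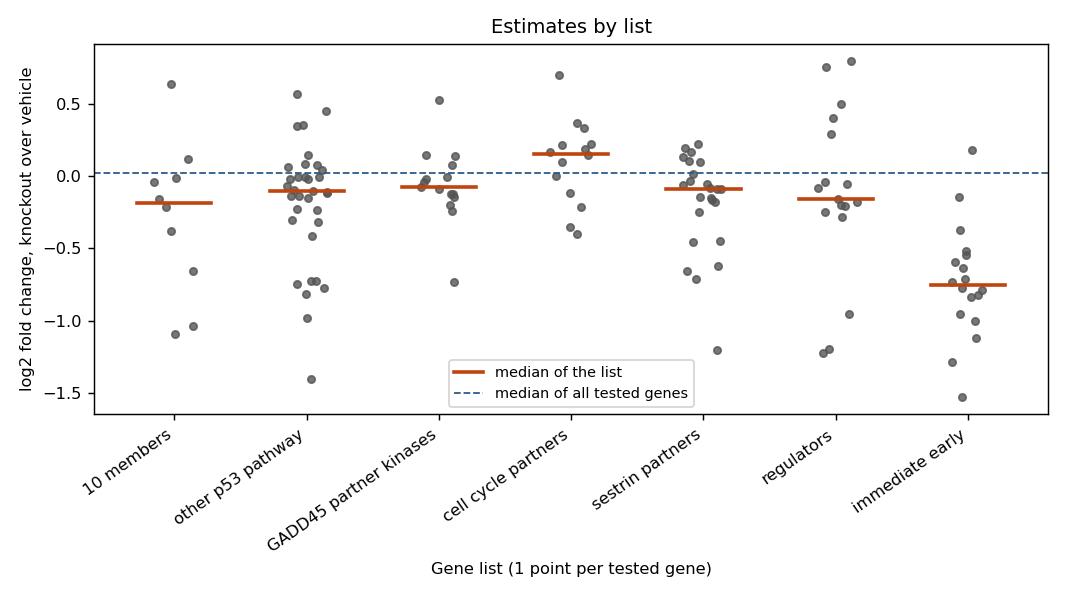
Log2 fold change of knockout over vehicle for each tested gene of 7 lists (points, spread sideways for visibility), with the list median (red bar) and the median of all tested genes (dashed line, 0.021). The immediate early list sits lowest, at a median of -0.75, and the 10 members scatter from -1.09 to 0.63.

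Markers of other cells and fibre types also differed between libraries. Macrophage markers were higher in knockout in 10 of 11 estimates (median log2 fold change 1.23) and summed to 29.7 to 117 FPKM in knockout and 26.4 to 43.6 FPKM in vehicle libraries. Adipocyte markers were higher in 6 of 6 estimates (median 1.38; 44.4 to 190 against 17.8 to 51.9 FPKM), fibro-adipogenic progenitor markers in 6 of 6 (median 0.80; 177 to 504 against 220 to 259 FPKM) and slow fibre markers in 10 of 10 (median 1.90). Fast fibre markers were lower in 8 of 10 (median -0.33), with 66115 FPKM in knockout replicate 2 against 88097 to 121273 FPKM in the other libraries. Endothelial markers were higher in 5 of 6 (median 0.16), satellite cell markers in 4 of 6 (median 0.070) and muscle fibre markers in 4 of 7 (median 0.044). No marker found in the table was at 0 in all libraries, and the ranges of all these sums overlapped between groups. The part of cell and fibre content in the values of the 10 genes was not tested.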

How the data were processed

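Reads counted per gene were compared between 3 knockout and 3 vehicle libraries, grouped by the phenotype in the labels. The labels do not say in words that each library came from a separate mouse, so p values measure only the spread between these samples, which may be technical. Replicate numbers are names only. The deposited count per gene was made with bcl2fastq, STAR 2.6.1c and featureCounts of Subread 1.5.1 on mm10, per the submitters' processing notes. Its annotation release is not given in the sources used here. Nor is the strand setting, which leaves overlapping and antisense genes uncertain. The deposited FPKM equal count over length plus 1 base and column total, to within rounding, and so carry no scaling for composition. All pairs of libraries differed by more than sampling noise (smallest chi-square per gene 41.4). The smallest values were between groups, for vehicle replicate 1 with knockout replicate 3 (41.4) and with knockout replicate 1 (43.8). Pairs within a group ran from 69 to 383 in knockout and from 101 to 143 in vehicle. Gene coordinates are those of the deposited table, and strands come from GENCODE M21.

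The test used edgeR 4.0.16 (R 4.3.3). The filter filterByExpr asked for a count of 10 and a total of 15. Counts were scaled by TMM (factors 0.912 to 1.13) and tested two-sided by a robust quasi-likelihood fit over all 15583 genes, with Benjamini-Hochberg adjustment and a threshold of 0.05. The biological coefficient of variation common to all genes was 0.27. SE were derived from F. A count of 3, taken as the floor, corresponds to 0.0752 to 0.0984 CPM. DESeq2 1.42.0 and limma 3.58.1 served as alternatives. The members and the 14 lists were chosen with earlier results of these data known. All members are named, along with the 3 genes of smallest p in each list that is not a marker list, and the 3 genes nearest in pattern to the member of smallest p in each family, among genes with a mean of at least 5 CPM. Atf3 and Trp53 are named outside that rule.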

Additional observations from a re-analysis of the deposited data

How the results depend on the processing

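Of 150 member estimates under the 15 alternatives, 135 kept their sign and their side of the threshold, 2 newly passed it and 13 changed sign. Gadd45b passed under DESeq2 (log2 fold change -1.06, adjusted p = 0.0107) and in edgeR without a low-count filter (-1.05, adjusted p = 0.0354), so that 1 member was called in each, against 0 otherwise. Signs turned for Sesn2 with limma on log2(FPKM + 0.1) and log2(FPKM + 1) (0.062 and 0.030) and for Sesn3 in those fits (0.13 and 0.042) and with limma-voom (0.11). Leaving out each library gave -0.15 to 0.093 for Sesn2, -0.47 to 0.27 for Sesn3 and -0.085 to 0.31 for Ccng1. The cause was not tested. The members' median lay between -0.32 and -0.092, and 6 to 8 members had a lower estimate, a count whose alternatives were added after the data were seen.

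Without a library, 2 to 4 members had an unadjusted p below 0.05, beside 3.69% to 12.1% of all genes tested in those fits, and Gadd45b and Sesn1 were among them in all 6. From 3 to 5 members had groups without overlap, beside 18.1% to 30.9% of all tested genes. The 5 arose on omission of knockout replicate 2 (20.3% of all genes) or of vehicle replicate 1 (27.2%). Over all genes, edgeR called 0, DESeq2 109, edgeR without a filter 29 of 23845, edgeR with DESeq2 size factors 4, and the fits without a library 0 to 24. Sesn2 and Sesn3 rested on the fewest reads, 76 to 106 and 37 to 146 per library. No paired analysis was possible because the labels give no number shared between groups.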
